A study of Mus musculus with 6 samples.

Results

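The MYC family and its MAX network comprised 10 genes, chosen by name (Myc, Mycn, Mycl, Max, Mxd1, Mxd3, Mxd4, Mxi1, Mnt and Mlx), and all 10 were found by symbol among the 52249 genes of the deposited count table. They were compared between 3 libraries of Apc-knockout mouse intestinal organoids and 3 libraries of Apc-knockout organoids labelled as overexpressing IGF2BP3 (IGF2BP3 OE). Organoids are epithelial cultures grown from intestinal tissue, and Apc is the tumour suppressor that restrains WNT signalling, so both groups lack it. The series title names MYC expression as the quantity through which IGF2BP3 acts on adenoma cells. The labels give neither the strain, age or number of animals, nor the construct, promoter or clone that carries IGF2BP3, nor whether the libraries of a group came from separate cultures. P-values therefore measure only the spread between these libraries, which may be technical.

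MYC, MYCN and MYCL are transcription factors that bind DNA only when paired with MAX, and they promote growth and proliferation. The MXD proteins (encoded by Mxd1, Mxd3, Mxd4 and Mxi1) and MNT pair with the same MAX, bind the same short DNA sequence, called the E-box, and recruit repressors through SIN3. MLX is a relative of MAX that pairs with some MXD proteins, with MNT and with the glucose-responsive factors MLXIP and MLXIPL. In intestinal epithelium Myc is a textbook target of WNT signalling. IGF2BP3 is an RNA-binding protein of a family known to bind and stabilise mRNAs, that of MYC among them.

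Libraries held 2180087 to 2519886 counts, and the 2 ranges did not overlap (up to 2228062 in Apc-knockout, from 2310216 in OE-labelled libraries). Counts of Igf2bp3 itself were 1, 0 and 0 in the Apc-knockout libraries and 1, 0 and 0 in the OE-labelled ones, all under the floor of 3 counts, so they gave no check of the label, and the libraries are called OE-labelled throughout. Apc had 164 to 182 counts in Apc-knockout and 148 to 158 in OE-labelled libraries; a 3′ tag outside a deleted part checks nothing, and the deleted part is not given. A floor of 3 counts corresponds to 1.18 to 1.41 CPM (the share of a library's counts on the usual CPM scale, after TMM scaling of library sizes) and covers counting error only. The epithelial marker list (Epcam, keratins and others) summed to 3948 to 4172 CPM in Apc-knockout and 5325 to 6025 CPM in OE-labelled libraries. Krt18 (mean 1179 and 2229 CPM), Krt8, Krt19 and Vil1 were called higher. Epcam (mean 432 and 455 CPM), Cdh1 (1398 and 1282 CPM) and Cdx2 were not (edgeR adjusted p = 0.586, 0.528 and 0.383), so the sum does not describe every marker. Fibroblast and endothelial marker lists summed to at most 3.28 CPM in any library, and Col3a1, Col1a2, Dcn and Cdh5 had no count. Of the leukocyte markers, Tyrobp, Adgre1 and Cd3e had no count, while Csf1r rose from 30.6 ± 2.6 to 49.1 ± 5.86 CPM (SD, n = 3, edgeR adjusted p = 0.0061). Cd68 was not called (mean 15.6 and 17.6 CPM, edgeR adjusted p = 0.575). Enterocyte markers were nearly absent, with Alpi, Sis and Fabp1 at 0 counts in all libraries. The secretory list (goblet, Paneth and enteroendocrine markers) summed to 614 to 641 CPM in Apc-knockout and 1338 to 1564 CPM in OE-labelled libraries, with Chga and Lyz1 at 0. Most of that sum was Spink4 (mean 480 and 1155 CPM). Of the 5 genes of the list tested, 4 were called higher (Spink4, Tff3, Mmp7 and Fcgbp). The goblet marker Muc2 was not (mean 4.03 and 4.74 CPM, edgeR adjusted p = 0.697). Mitochondrially encoded genes took 11.60 to 11.96% of the counts of Apc-knockout and 6.77 to 7.19% of OE-labelled libraries. In a fit without mitochondrially encoded genes, Myc, Mycl and Mxi1 were still called lower (edgeR adjusted p = 0.0395, 0.0212 and 0.000926). Otherwise the part of these shifts in the results below was not tested. Library names form a separate series for each group, so a difference between the series and a difference between the groups cannot be told apart.

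Of the 10 genes, 9 had enough counts to be tested, 3 fell and 0 rose in OE-labelled libraries by edgeR's quasi-likelihood test at an adjusted p below 0.05. The genes that fell were Myc and Mycl, 2 of the 3 activating family members, and Mxi1, a repressive partner of MAX. Across all 10687 genes tested, 29.2% were called, 12.7% as lower and 16.5% as higher. That split depended on the scaling, with 1765 higher and 1353 lower genes here, 1536 and 1541 with the size factors of DESeq2, 1504 and 1603 without mitochondrially encoded genes, and 2035 and 1154 with library totals. The median log2 fold change of the 9 genes was -0.24, against 0.04 for all genes tested. Of the 9, 7 were below 0, beside 47.0% of all genes tested. Among these 7, Mycn (-0.02) and Mnt (-0.06) were close to 0 and changed sign in some alternatives. At an unadjusted p below 0.05 in the edgeR test, 1 member (Mxd4) was higher, and the share of all genes at that level was not computed. Groups were fully separated in CPM for 4 members (Myc, Mycl and Mxi1 lower, Max higher), beside 45.7% of all genes tested (20.5% lower and 25.3% higher).

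**Figure D1:**
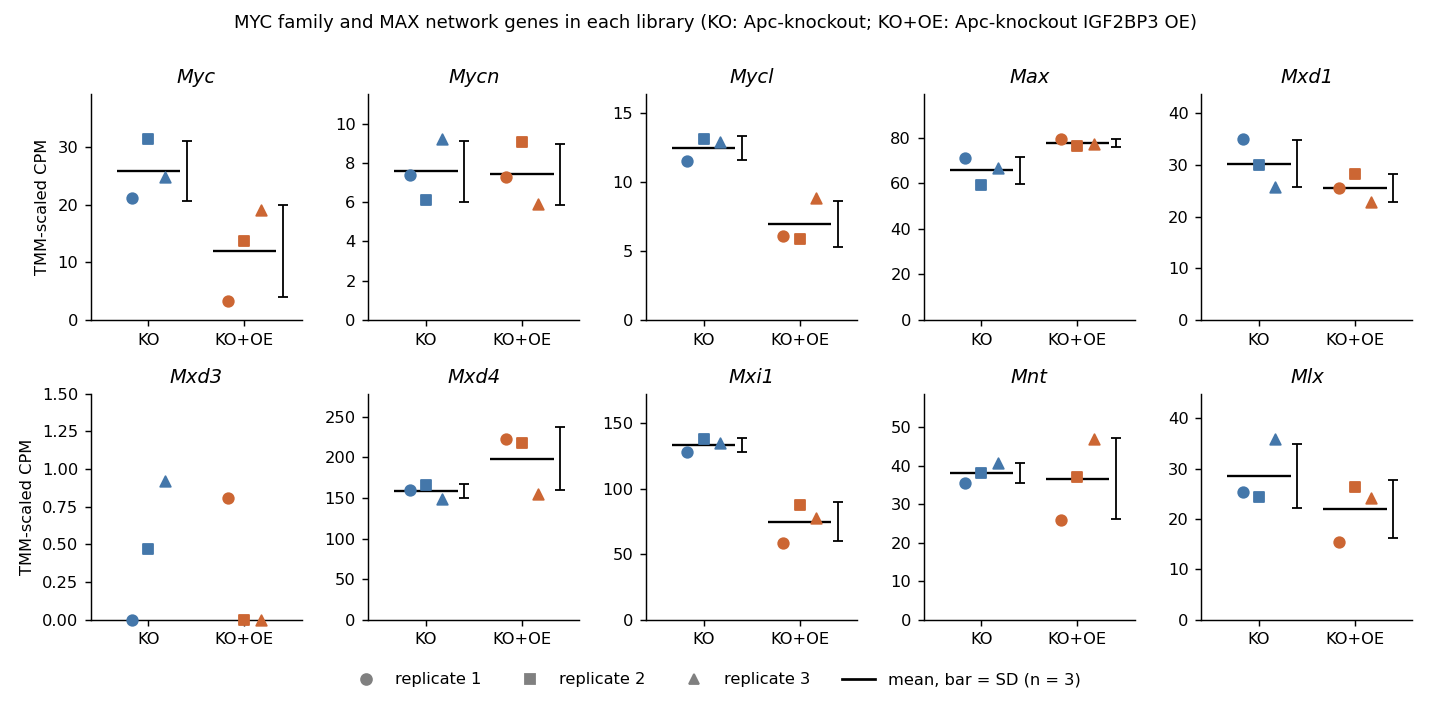
TMM-scaled CPM of the 10 genes in each library (linear axes from 0; marker shapes give the replicate number, horizontal lines the mean and bars the SD, n = 3; Mxd3, with at most 2 counts per library, is shown without mean and SD). The OE-labelled points of Myc, Mycl and Mxi1 all lie below the Apc-knockout points, those of Max all lie above them, and Myc in OE-labelled replicate 1 stands lowest at 3.24 CPM.

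The E-box is the site at which these proteins bind, and 4 of the genes carry it near their own start, so those stretches are shown first. RefSeq promoter windows (GRCm38.p6, 250 bases before to 50 after a start) were available for 9 of the 10 genes: Mycn, Mycl, Max, Mxd1, Mxd3, Mxd4, Mxi1, Mnt and Mlx. The perfect E-box CACGTG, which reads the same on both strands, occurred in the windows of Max, Mxd4, Mnt and Mlx (4 of 9 genes), compared with 8.09% of all 27025 genes with a window and 7.15% of all 32851 windows. No perfect E-box was in the windows of Mycn, Mycl, Mxd1, Mxd3 or Mxi1 (Mxi1 has 3 windows). In each line below, the E-box is in capitals with 30 bases before it and 20 after it, 5′ to 3′ on the strand of the gene.
Max: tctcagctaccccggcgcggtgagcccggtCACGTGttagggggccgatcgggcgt
Mxd4: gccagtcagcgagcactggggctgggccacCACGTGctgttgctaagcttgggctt
Mnt: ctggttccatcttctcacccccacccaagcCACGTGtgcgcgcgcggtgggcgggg
Mlx: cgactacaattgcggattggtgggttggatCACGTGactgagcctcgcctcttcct
The Max stretch lies at chr12:76962226-76962281 (minus strand), where the E-box begins 3 bases before the start and spans it. The Mxd4 stretch is chr5:34187904-34187959 (minus strand), with the E-box 219 bases before the start. The Mnt stretch is chr11:74830771-74830826 (plus strand, 123 bases before the start) and that of Mlx chr11:101087220-101087275 (plus strand, 40 bases before the start). The WNT-responsive TCF/LEF word CTTTGAT (or ATCAAAG) was in the windows of 0 of the 9 genes and 4.29% of all genes (3.73% of windows), and the E2F word TTTCCCGC (or GCGGGAAA) in those of 0 of the 9 and 1.24% of all genes (1.07% of windows). A match describes the letters only. Of the genes tested between the groups, none of the 4 with an E-box passed, and of the 4 without one in these windows Mycl and Mxi1 passed and Mycn and Mxd1 did not. The difference between these sets was not tested.

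Myc, the founding member of the activating family, lies on the plus strand of chromosome 15 (61985391 to 61990374, GRCm38) and overlaps no other annotated gene. It was counted at 21.2, 31.4 and 24.9 CPM in Apc-knockout replicates 1, 2 and 3 and at 3.24, 13.8 and 19.0 CPM in OE-labelled replicates 1, 2 and 3. All OE-labelled CPM values lay below all Apc-knockout values, but the nearest libraries held 46 counts (Apc-knockout replicate 1) and 45 counts (OE-labelled replicate 3). The OE-labelled libraries differed among themselves far more than the Apc-knockout ones, from 8 counts in replicate 1 to 45 in replicate 3. Over all genes too, the biological coefficient of variation was 3.15% among Apc-knockout and 17.2% among OE-labelled libraries. In bulk samples, fewer cells expressing a gene and less RNA per cell cannot be told apart. The log2 fold change was -1.11 (SE 0.39, 95% confidence interval -1.94 to -0.27, edgeR adjusted p = 0.0472). The size depended on OE-labelled replicate 1, without which the change was -0.71 (edgeR adjusted p = 0.0214). The call was lost with DESeq2 (-1.16, adjusted p = 0.21), with library totals in place of TMM (-1.06, edgeR adjusted p = 0.062), and on leaving out any 1 Apc-knockout library or OE-labelled replicate 2 (edgeR adjusted p = 0.0806 to 0.174).

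Mycl encodes L-MYC, a family member with weaker transforming activity (plus strand of chromosome 4, 122995652 to 123002485). Its levels were 11.5, 13.1 and 12.9 CPM in Apc-knockout and 6.08, 5.90 and 8.88 CPM in OE-labelled libraries, in replicate order. The groups did not overlap, but every library rested on only 15 to 28 counts. The nearest libraries held 25 counts (Apc-knockout replicate 1) and 21 counts (OE-labelled replicate 3). The log2 fold change of Mycl was -0.85 (standard error 0.26, 95% confidence interval -1.42 to -0.28, edgeR adjusted p = 0.0282). The call was lost with DESeq2 (adjusted p = 0.101) and on leaving out any 1 Apc-knockout library or OE-labelled replicate 2 (log2 fold change -0.91 to -0.77, edgeR adjusted p = 0.0624 to 0.0944).

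Mycn, better known from neural and embryonic tissue (minus strand of chromosome 12, 12936093 to 12941914), was the least abundant family member in Apc-knockout libraries. It was counted at 7.37, 6.10 and 9.21 CPM in Apc-knockout and 7.29, 9.04 and 5.92 CPM in OE-labelled libraries. These ranges overlapped almost entirely. The log2 fold change of -0.02 (edgeR adjusted p = 0.961) had a 95% confidence interval of -0.66 to 0.61, so changes within that range in either direction remain possible. The counts of the 3 family genes together were 87, 108 and 102 in Apc-knockout and 41, 73 and 80 in OE-labelled libraries, although the latter were the deeper ones. Myc made up 52.9 to 62.0% of them in Apc-knockout libraries and 19.5, 47.9 and 56.2% in OE-labelled replicates 1, 2 and 3 (mean 41.2% ± 19.3, SD, n = 3), so these ranges overlapped.

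Max, the shared partner (minus strand of chromosome 12, 76937269 to 76962201), was counted at 71.0, 59.1 and 66.8 CPM in Apc-knockout and 79.4, 76.3 and 77.4 CPM in OE-labelled libraries. Every OE-labelled value was above every Apc-knockout value, and the OE-labelled values lay close together. The difference did not pass the test (log2 fold change 0.24, SE 0.12, 95% confidence interval -0.02 to 0.51, edgeR adjusted p = 0.154). Max counts per count of the activating family were 1.77, 1.17 and 1.42 in Apc-knockout and 4.78, 2.66 and 2.29 in OE-labelled libraries, a ratio that needs no scaling between libraries. A fall of Myc and Mycl by itself raises this ratio, and the part of each gene in it was not tested. Family counts per 100 counts of the MXD genes and Mnt overlapped between the groups, at 11.18 to 13.6 in Apc-knockout and 4.98 to 11.2 in OE-labelled libraries. In GENCODE M21 the gene model Gm47218 overlaps Max on the same strand and could share its reads. No gene of that symbol is among the deposited counts.

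**Figure D2:**
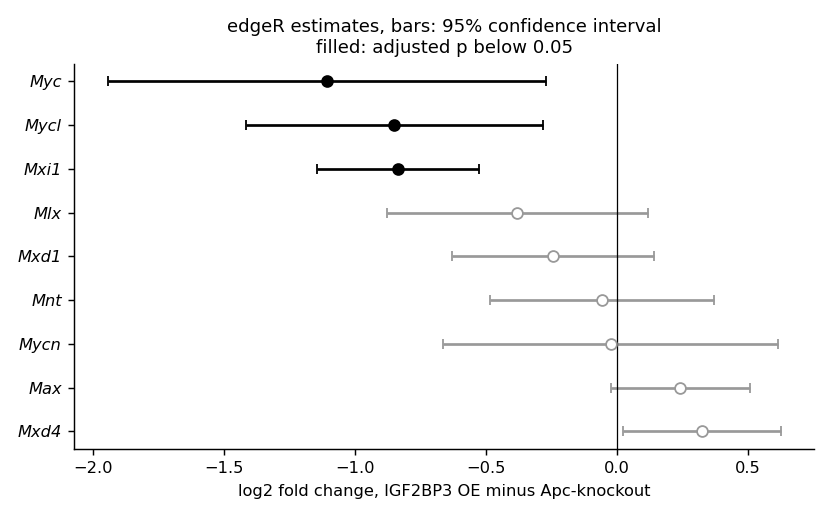
Log2 fold change of the 9 tested genes (OE-labelled minus Apc-knockout) from the edgeR fit, with 95% confidence intervals; filled points have an adjusted p below 0.05. Myc, Mycl and Mxi1 are filled and lie between -1.11 and -0.84, and the interval of Myc is the widest.

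Among the antagonists, Mxi1 had the clearest difference of all 10 genes. Mxi1 (plus strand of chromosome 19, 53310518 to 53375810) encodes an MXD protein that competes with MYC for MAX. It was counted at 128, 138 and 135 CPM in Apc-knockout and 58.7, 87.7 and 77.8 CPM in OE-labelled libraries. The lowest Apc-knockout library was well above the highest OE-labelled one, and each held at least 145 counts. The log2 fold change of Mxi1 was -0.84 (standard error 0.14, 95% confidence interval -1.15 to -0.53, edgeR adjusted p = 0.00122), and it passed in all 18 alternatives run (log2 fold change -1.0 to -0.74). It overlaps 2 annotated genes on the opposite strand, and the strand setting of the counting is not given in the sources used here.

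Mxd4 (minus strand of chromosome 5, 34173883 to 34187720), an MXD gene known for expression in differentiating cells, was the most abundant member in both groups. Its levels were 160, 166 and 149 CPM in Apc-knockout and 223, 218 and 154 CPM in OE-labelled libraries. OE-labelled replicates 1 and 2 were above all Apc-knockout libraries, whereas replicate 3 lay among them. The difference did not pass (log2 fold change 0.32, SE 0.14, 95% confidence interval 0.02 to 0.63, edgeR adjusted p = 0.0977), but it did without OE-labelled replicate 3 (0.48, edgeR adjusted p = 0.00316).

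A fall of Mxi1 by itself raises the Mxd4 share and the ratio of Mxd4 to Mxi1. The estimate for Mxd4 was also above 0 (log2 fold change 0.32, 95% confidence interval 0.02 to 0.63), although it did not pass. The part of each gene in the ratio was not tested. There were 1.26, 1.20 and 1.11 Mxd4 counts per Mxi1 count in Apc-knockout libraries and 3.79, 2.49 and 1.98 in OE-labelled ones. The ratios of the groups did not overlap, but the pair was chosen after its values were seen, so this is a description. Of all counts of Mxd1, Mxd3, Mxd4, Mxi1 and Mnt, Mxi1 held 37.0% ± 1.4 in Apc-knockout and 22.3% ± 4.24 in OE-labelled libraries (SD, n = 3). Mxd4 held 43.9% ± 1.27 and 58.9% ± 7.81 (SD, n = 3). The total of these counts overlapped between the groups, at 763 to 794 and 714 to 944. The sum of secretory markers given above was also higher in every OE-labelled library, and its part in this shift was not tested.

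**Figure D3:**
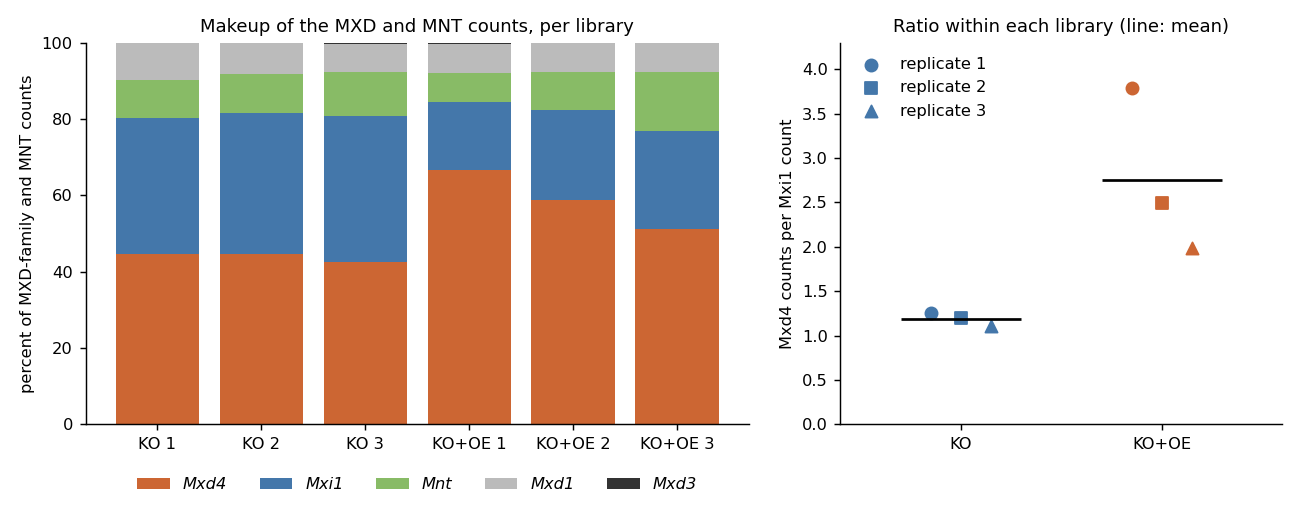
Left, the percentage of all MXD-family and Mnt counts held by each gene in each library (stacked bars summing to 100%); right, Mxd4 counts per Mxi1 count in each library, with the group mean as a line. The Mxd4 bar is taller and the Mxi1 bar shorter in every OE-labelled library, and the ratio is highest in OE-labelled replicate 1 at 3.79.

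The other antagonists did not pass the test. Mxd1, an MXD gene induced as cells leave the cycle (minus strand of chromosome 6, 86647042 to 86669161), was counted at 35.03, 30.02 and 25.80 CPM in Apc-knockout and 25.5, 28.3 and 22.8 CPM in OE-labelled libraries. In GENCODE M21 the gene model Gm44292 overlaps Mxd1 on the same strand, but no gene of that symbol is among the deposited counts. The ranges overlapped, and the log2 fold change of -0.24 had a 95% confidence interval of -0.63 to 0.14 (edgeR adjusted p = 0.327). Mnt, which encodes a widely expressed repressor (plus strand of chromosome 11, 74830920 to 74845725), was at 35.5, 38.0 and 40.5 CPM in Apc-knockout and 25.9, 37.0 and 46.9 CPM in OE-labelled libraries. OE-labelled replicates 1 and 3 lay below and above all Apc-knockout libraries, so the group mean hides a wide spread (log2 fold change -0.06, 95% confidence interval -0.49 to 0.37, edgeR adjusted p = 0.856). Mxd3, an MXD gene linked to dividing cells (minus strand of chromosome 13, 55325168 to 55329823), had 0, 1 and 2 counts in Apc-knockout and 2, 0 and 0 counts in OE-labelled libraries. All were under the floor of 3 counts, so Mxd3 was neither tested nor given a fold change.

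Mlx (plus strand of chromosome 11, 101087277 to 101092207), which links the network to glucose sensing, was counted at 25.3, 24.4 and 35.9 CPM in Apc-knockout and 15.4, 26.3 and 24.1 CPM in OE-labelled libraries. The low OE-labelled replicate 1 and the high Apc-knockout replicate 3 stood at the ends, while the other libraries overlapped. The log2 fold change was -0.38 (SE 0.23, 95% confidence interval -0.88 to 0.12, edgeR adjusted p = 0.235).

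Because the kit reads near the 3′ end, a transcript gives counts independent of its length, and the CPM levels of the genes were set in order without dividing by length. In Apc-knockout libraries the order of mean CPM was Mxd4, Mxi1, Max, Mnt, Mxd1, Mlx, Myc, Mycl, Mycn and Mxd3. Neighbours in that order did not overlap, except Mxd1 with Mlx and Mlx with Myc. In OE-labelled libraries Max stood above Mxi1 (77.7 ± 1.58 and 74.7 ± 14.7 CPM, SD, n = 3), but their ranges overlapped, as did those of all neighbours from Mnt down to Mycl. Mxd4 stayed first, at 159 ± 8.54 and 198 ± 38.3 CPM (SD, n = 3), apart from its neighbour in both groups. In every library the least abundant of Mxd4, Mxi1 and Max was above Myc, Mycl and Mycn.

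**Figure D4:**
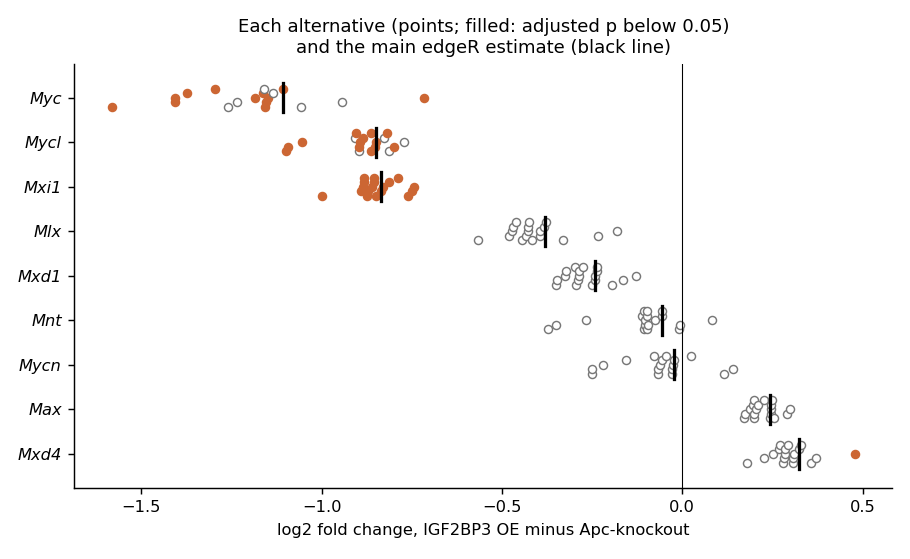
Log2 fold change (OE-labelled minus Apc-knockout) of the 9 tested genes under each processing alternative (points, filled where the adjusted p was below 0.05) with the edgeR estimate as a black line. All points of Mxi1 are filled, those of Myc spread from -1.58 to -0.71, and 1 point of Mxd4 is filled.

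The genes around the network were described from 8 lists written from general knowledge, but with earlier results of these data known. Their counts are therefore a description and no independent support. Each list is given by the number of members called and its median log2 fold change. Over all genes tested, 16.5% were called higher and 12.7% lower, with a median of 0.04. Of 9 tested direct partners, competitors and SIN3 complex genes, 0 rose and 3 fell, with a median of -0.12; 1 fell with library totals, with the GC offset, and without any 1 Apc-knockout library or OE-labelled replicate 2. Hdac2, a histone deacetylase of the SIN3 complex through which MXD proteins repress, fell from 96.2 ± 8.4 to 62.9 ± 4.31 CPM (SD, n = 3, edgeR adjusted p = 0.00336). Mga, which encodes a large MAX-binding repressor, fell from 127 ± 10.6 to 98.9 ± 10.4 CPM (SD, n = 3; edgeR, adjusted p = 0.0441), while Ncor1, a corepressor, fell by 0.29 in log2 units (standard error 0.10, edgeR adjusted p = 0.04). Mlxip, the partner of MLX, had 23, 35 and 36 counts in Apc-knockout and 32, 44 and 23 in OE-labelled libraries, with no difference passing the test (log2 fold change -0.12, edgeR adjusted p = 0.775).

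MYC cofactors went in both directions, with 2 higher and 3 lower of 20 tested and a median of -0.19. Ruvbl2, an ATPase of chromatin complexes that MYC recruits, rose from 14.8 ± 1.83 to 29.9 ± 3.75 CPM (SD, n = 3, edgeR adjusted p = 0.00253). Trrap, the scaffold of the acetyltransferase complexes bound by MYC, fell from 43.9 ± 7.04 to 26.6 ± 2.62 CPM (SD, n = 3, edgeR adjusted p = 0.00762). Mycbp2, a ubiquitin ligase first found as a MYC-binding protein, fell by 1.11 (SE 0.14, edgeR adjusted p = 2e-04), and Smarcb1, a SWI/SNF subunit, rose by 0.52 (SE 0.15, edgeR adjusted p = 0.0235).

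Of 20 tested genes acting on MYC protein stability, 2 rose and 6 fell, with a median of -0.33. The 4 with the smallest p all fell and include genes of both effects. Huwe1, a ubiquitin ligase for MYC, fell from 296 ± 7.13 to 166 ± 32 CPM (SD, n = 3, edgeR adjusted p = 0.00078), while Gsk3b, the kinase that marks MYC for degradation, fell from 431 ± 13.3 to 279 ± 31 CPM (SD, n = 3, edgeR adjusted p = 0.00127). Set, an inhibitor of the phosphatase PP2A, fell by 0.64 (SE 0.11, edgeR adjusted p = 0.00119) and the deubiquitinase gene Usp7 by 0.67 (SE 0.11, edgeR adjusted p = 0.00123).

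Upstream regulators of Myc showed 4 higher and 4 lower genes of 19 tested (1 or 2 lower on leaving out 1 Apc-knockout library), with a median of 0.06. Ctnnb1, which encodes beta-catenin, the WNT effector that activates Myc, rose from 1529 ± 25.3 to 2183 ± 61.9 CPM (SD, n = 3, edgeR adjusted p = 0.001). Hnrnpk and Fubp1, whose proteins bind control elements of Myc, went in opposite directions, Hnrnpk rising by 0.61 (SE 0.10, edgeR adjusted p = 0.0012) and Fubp1 changing by -0.60 (SE 0.12, edgeR adjusted p = 0.00332). Pygo2, a beta-catenin coactivator gene, rose by 0.67 (SE 0.14, edgeR adjusted p = 0.00419). The remaining called genes of this list were E2f1, which rose by 1.15 (edgeR adjusted p = 0.0209), and 3 that fell. Those were Igf2bp1 (-0.82), Tcf7l2 (-0.43) and Igf2bp2 (-0.58), with edgeR adjusted p = 0.0111, 0.0146 and 0.0308.

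Of 63 tested genes known to be activated by MYC, 19 rose and 6 fell (11 without OE-labelled replicate 1), with a median of 0.20. Prmt1, an arginine methyltransferase, rose from 119 ± 7.69 to 289 ± 78.6 CPM (SD, n = 3, edgeR adjusted p = 0.000381). Shmt2, of mitochondrial one-carbon metabolism, rose from 63.4 ± 6.45 to 119 ± 18.8 CPM (SD, n = 3, edgeR adjusted p = 0.000722). Slc3a2, the shared subunit of amino acid transporters, rose by 0.72 (SE 0.10, edgeR adjusted p = 0.000516), and Bop1, a ribosome assembly factor, by 1.27 (SE 0.20, edgeR adjusted p = 0.00078).

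Genes known to be repressed by MYC gave 0 higher and 7 lower of 15 tested (4 lower without Apc-knockout replicate 3), with a median of -0.27. They include brakes on the cell cycle that other regulators, such as p53, control as well. Btg1, an antiproliferative factor, fell from 118 ± 2.27 to 45.2 ± 10 CPM (SD, n = 3, edgeR adjusted p = 0.000104). Tob1, of the same family, fell from 87.2 ± 1.28 to 34.04 ± 9.14 CPM (SD, n = 3, edgeR adjusted p = 0.000262). Cdkn1a, which encodes the CDK inhibitor p21, was counted at 1190, 1124 and 1104 CPM in Apc-knockout and 640, 650 and 408 CPM in OE-labelled libraries, which is a change of -1.01 in log2 units (standard error 0.15, edgeR adjusted p = 0.000584). Klf6, a zinc-finger tumour suppressor gene, fell by 0.96 (SE 0.16, edgeR adjusted p = 0.000983). Within the OE-labelled libraries Cdkn1a was lowest in replicate 3, the one with the highest Myc level. By contrast, Btg1, Tob1 and Klf6 were lowest in replicate 1 (38.1, 23.5 and 111 CPM), the one with the lowest Myc level. A link between these levels and that of Myc was not tested.

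**Figure D5:**
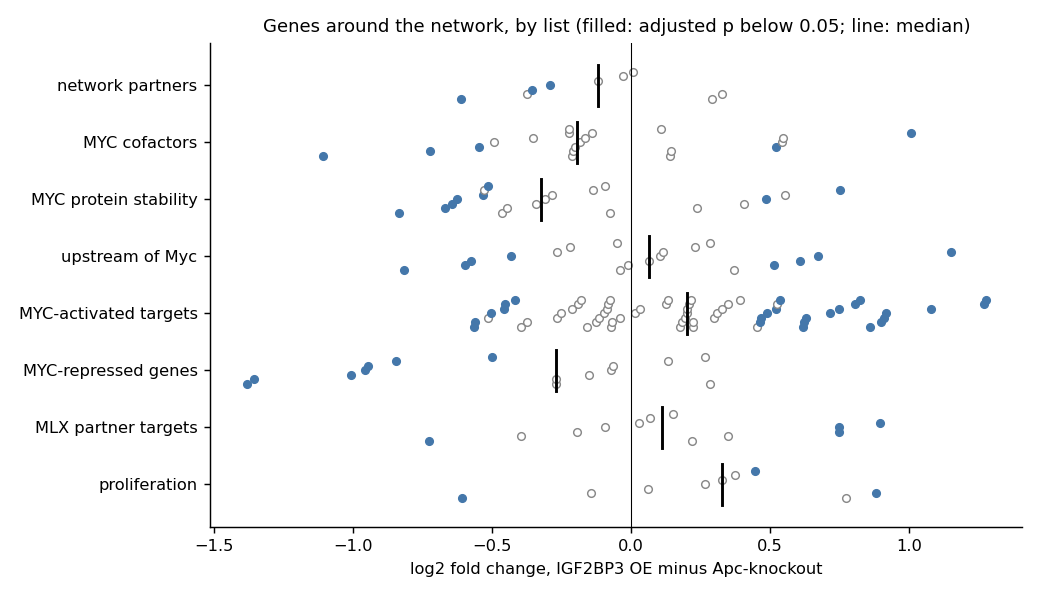
Log2 fold change (OE-labelled minus Apc-knockout) of every tested gene of the 8 lists (1 point per gene, filled where the edgeR adjusted p was below 0.05, vertical line at the list median; vertical position within a list carries no meaning). The MYC-repressed list has 7 filled points, all below 0, and the MYC-activated list 19 filled points above 0 and 6 below.

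Genes regulated through MLX and its partners, mostly of sugar and lipid metabolism, gave 3 higher and 1 lower of 12 tested, with a median of 0.11. Fasn, the fatty acid synthase gene, rose from 123 ± 4.78 to 228 ± 40.4 CPM (SD, n = 3, edgeR adjusted p = 0.000539), Gpd1 rose by 0.75 (SE 0.14, edgeR adjusted p = 0.00215) and Pklr by 0.75 (SE 0.22, edgeR adjusted p = 0.0212). Bhlhe40, itself a repressor that binds E-boxes, fell from 192 ± 3.6 to 116 ± 9.5 CPM (SD, n = 3, edgeR adjusted p = 0.000591). The proliferation list gave 2 higher (Birc5 and Cdk1) and 1 lower (Top2a) of 9 tested, with a median of 0.33. With DESeq2, and without Apc-knockout replicate 1 or 2, 0 genes of the list were called higher. Top2a was not called with the GC offset or without Apc-knockout replicate 1 or 2 or OE-labelled replicate 2.

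The genes whose log2 CPM followed Myc most closely over the 6 libraries, among 9069 genes compared, were Xxylt1 (Pearson r = 0.998), Hnrnph1 (0.995), Prrc2b (0.994), Zc3hav1 (0.994) and Zdhhc13 (0.991). Each of the 5 was lowest in OE-labelled replicate 1, where Xxylt1 was at 2.43 CPM against 12.9 to 18.3 CPM in Apc-knockout libraries. Xxylt1 passed the test between the groups (edgeR adjusted p = 0.0451), and the other 4 did not (edgeR adjusted p = 0.0887 to 0.197). For Mycl they were Zfp266 (0.997), Ahnak (0.997), Snx14 (0.995), Snrnp48 (0.991) and the pseudogene Rpl9-ps6 (0.991), whose reads may come from its parent gene. Rpl9-ps6 was at 9.68 to 12.9 CPM in Apc-knockout and 1.215, 1.57 and 5.50 CPM in OE-labelled replicates 1, 2 and 3. It met the count filter only through the Apc-knockout libraries, and OE-labelled replicates 1 and 2 were near the floor. The correlations with Myc and Mycl are the highest of many values over 6 libraries in 2 groups and describe the pattern only.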

How the data were processed

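The authors deposited estimated counts per gene, unnormalized and in 2843 values fractional, for 6 libraries made with a QuantSeq 3′ forward kit from column-purified, DNase-treated RNA, per the labels' protocols. Per the submitters' processing notes, STAR and HTSeq were used with mm10 and GRCm38. The annotation, the strand setting and the treatment of multi-mapping reads and molecular identifiers are not given in the sources used here. Columns were matched to samples by library name and groups taken from sample titles. Counts were rounded, filtered with filterByExpr, scaled by TMM and tested over all 10687 genes kept with edgeR 4.0.16 (R 4.3.3, quasi-likelihood, no covariates, Benjamini-Hochberg). Each standard error is the log2 fold change over the root of its F statistic. Log2 CPM for likeness had a prior count of 2 and needed 20 counts in 3 libraries. Positions come from GENCODE M21 (99.3% of identifiers matched), promoters from RefSeq (GRCm38.p6).

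The members and lists were chosen with earlier results of these data known. Named genes are all members, up to 4 called genes with the smallest p per list, and the 5 genes most like Myc and Mycl. Mlxip, the remaining called upstream genes and the label and marker checks are additional. Alternatives tried were edgeR with library totals or with the size factors of DESeq2, DESeq2 1.42.0, limma-voom (3.58.1), other filters, unrounded counts, no mitochondrially encoded genes, a GC offset (loess, span 0.5, longest transcript), the replicate block, each library left out, and, added after seeing the data, limma-voom with a variance per group. The fits were tested on simulated data in which both groups had the same spread. The spread of these groups differs (3.15% and 17.2%), so the simulation cannot show how that affects the calls.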

Additional observations from a re-analysis of the deposited data

How the results depend on the processing

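Over the alternatives, the directions of Myc, Mycl, Mxi1, Max, Mxd1, Mxd4 and Mlx never changed. Myc did not pass with DESeq2 (-1.16) or library totals (-1.06) and its values without 1 library each were -1.58 to -0.71. The number of members called lower was 1 with DESeq2 and at an adjusted p below 0.01, and 1 to 3 on leaving out each library (1 without any Apc-knockout replicate or OE-labelled replicate 2); the number called higher was then 0 to 1. Over all genes, 1578 passed at 0.01, and 1748 (without Apc-knockout replicate 3) to 3532 (without OE-labelled replicate 3) on leaving out each library, against 3118. Library totals moved Mycn to 0.0235; leaving out Apc-knockout replicate 3 or OE-labelled replicate 3 moved it to 0.14 and 0.11 (range -0.22 to 0.14), and leaving out OE-labelled replicate 1 moved Mnt to 0.0828 (range over libraries left out -0.267 to 0.0828). With the GC offset Mnt was -0.35 and Mycn -0.25, neither passing. With the replicate block Myc was at -1.18 (edgeR adjusted p = 0.0143) and 3112 genes passed; the block changed no call of a member. Deviations of equally numbered libraries correlated at 0.0975, 0.0181 and 0.0695 for replicates 1, 2 and 3, and those of unequally numbered ones at -0.111 to 0.0424. For each OE-labelled replicate the equally numbered Apc-knockout library gave the highest value, but all values were small. They do not settle whether the numbers pair libraries, and the main fit did not use them. Called counts in the lists ranged from 15 to 21 higher and 4 to 11 lower for MYC-activated genes, 0 to 1 and 4 to 7 for MYC-repressed genes, 1 to 2 and 2 to 6 for cofactors, 1 to 2 and 5 to 8 for stability genes, 2 to 5 and 1 to 5 for upstream genes, 0 to 1 and 1 to 3 for partners, 2 to 4 and 1 for MLX targets, and 0 to 3 and 0 to 1 for proliferation. Without OE-labelled replicate 3 the list medians of partners (0.005), upstream genes (-0.048) and MLX targets (-0.048) changed sign; the upstream median also did with no count filter (-0.008), with the replicate block and GC offset together (-0.026) and without Apc-knockout replicate 1 (-0.016). Depth limits Mycl and Mycn, at 13 to 28 counts per library, and Mxd3, under the floor.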

Other observations

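Pvt1, the non-coding gene next to Myc, was counted at 11.98, 15.95 and 16.12 CPM in Apc-knockout and 13.8, 14.6 and 19.4 CPM in OE-labelled libraries. The ranges overlapped and no difference passed the test (log2 fold change 0.11, 95% confidence interval -0.39 to 0.61, edgeR adjusted p = 0.746). OE-labelled replicate 1, the lowest library for Myc at 3.24 CPM, was within the Apc-knockout range for Pvt1. Mlxipl, the second glucose-responsive partner of MLX, had 1 to 5 counts in every library. Prelid1, which overlaps Mxd3 on the opposite strand, had 186 to 207 counts in Apc-knockout and 305 to 400 in OE-labelled libraries, while Mxd3 stayed at 2 counts or fewer. Psmc3ip, opposite Mlx, had 2 to 6 counts per library. These genes were picked with their values in view.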
